A study of Mus musculus with 4 samples.

Results

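The T cell receptor alpha and delta locus of the mouse was taken as the stretch of chromosome 14 from 53000000 to 54870000 in the mm9 build, 1.87 Mb that hold the Trav and Trdv segments, the Traj segments, the constant genes Trdc and Trac and the alpha enhancer. Its members were the accessible sites called there by DNase-seq, in which DNase I cuts open chromatin and the released ends are sequenced. Peaks of 4 libraries with a midpoint in this stretch were merged wherever they overlapped by at least 1 bp, which gave 75 regions of 38986 in all. Regions were selected on position, but the locus was chosen by calls and folds of these same libraries, among them a strong site seen only in the knockout cells. Counts and values by genotype are therefore descriptions without a test. The cells were naive CD8+ T cells of mouse spleen, sorted as GFP+ and TCRbeta+ with high CD62L and low to medium CD44, and cultured in IL-7 plus IL-15 over 72 h. All mice carried hCD2-Cre, a Cre recombinase under the human CD2 promoter, and Rosa26-lsl-GFP, a reporter that turns on after Cre has acted. The 2 wild-type libraries (WT) came from mice with intact Tcf1 and Lef1, and the 2 double knockout libraries (DKO) from mice with both genes floxed. The ages of the mice and whether replicates came from separate animals are not given, and the spread among them may therefore be technical.

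The locus encodes the alpha chain of the receptor on most T cells and, nested inside it, the delta chain of gamma delta T cells. A developing T cell joins a Trav segment to a Traj segment upstream of Trac, and this joining removes the DNA between them, Trdc included, from that chromosome. Mature alpha beta T cells therefore carry alleles that lack different parts of the locus. The alpha enhancer lies downstream of Trac and drives transcription of the rearranged gene. Tcf1 and Lef1 are HMG-box transcription factors that act early in T cells, and Lef1 is a textbook factor of this enhancer. In the RefSeq table of the GRCm38.p6 build the segments follow each other as Trav and Trdv, Trdd, Trdj, Trdc, Traj and Trac. That table lists 130 Trav and 60 Traj symbols, and 74 of the Trav symbols carry a d or n that marks a copy from a repeated block. How reads that fit several copies were placed is not given in the sources used here, so a call among the Trav segments may come from a sister copy. No annotation of mm9 was used, so sites are given by position without a segment name, and marker genes of the sorted cells were not analysed here.

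Accessible sites of the locus were listed mainly in the DKO libraries. WT replicates 1 and 2 had 8 and 3 peaks in the locus, and DKO replicates 1 and 2 had 71 and 26. The groups did not overlap, and the DKO mean of 48.5 ± 31.8 peaks was 8.82 times the WT mean of 5.5 ± 3.54 (SD, n = 2 each). The ratio was 8.88 between the replicates 1 and 8.67 between the replicates 2. The DKO lists were longer throughout, with a ratio of 1.96 over the whole lists and of 2.1 on the rest of chromosome 14. In both of these totals the groups did not overlap either. As a share of each list, the locus held 0.0457% (95% exact binomial interval 0.0197 to 0.0899%) of the WT replicate 1 peaks and 0.0271% (0.00559 to 0.0792%) of the WT replicate 2 peaks. In DKO replicates 1 and 2 it held 0.204% (0.159 to 0.257%) and 0.122% (0.0796 to 0.178%). These intervals cover counting error only. With every list held to its 11073 peaks of highest −log10 p, the length of the shortest list, WT replicates 1 and 2 still had 8 and 3 peaks in the locus and DKO replicates 1 and 2 had 15 each. Read totals are not in the lists. The lowest local background, which grows with depth where no control library sets it, was 1.5 and 1.47 fragments per position in WT and 1.23 and 1.15 in DKO. Chromosome Y held 55 and 57 peaks of the DKO libraries and 0 of either WT library, a difference that cannot be told apart from genotype.

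**Figure D1:**
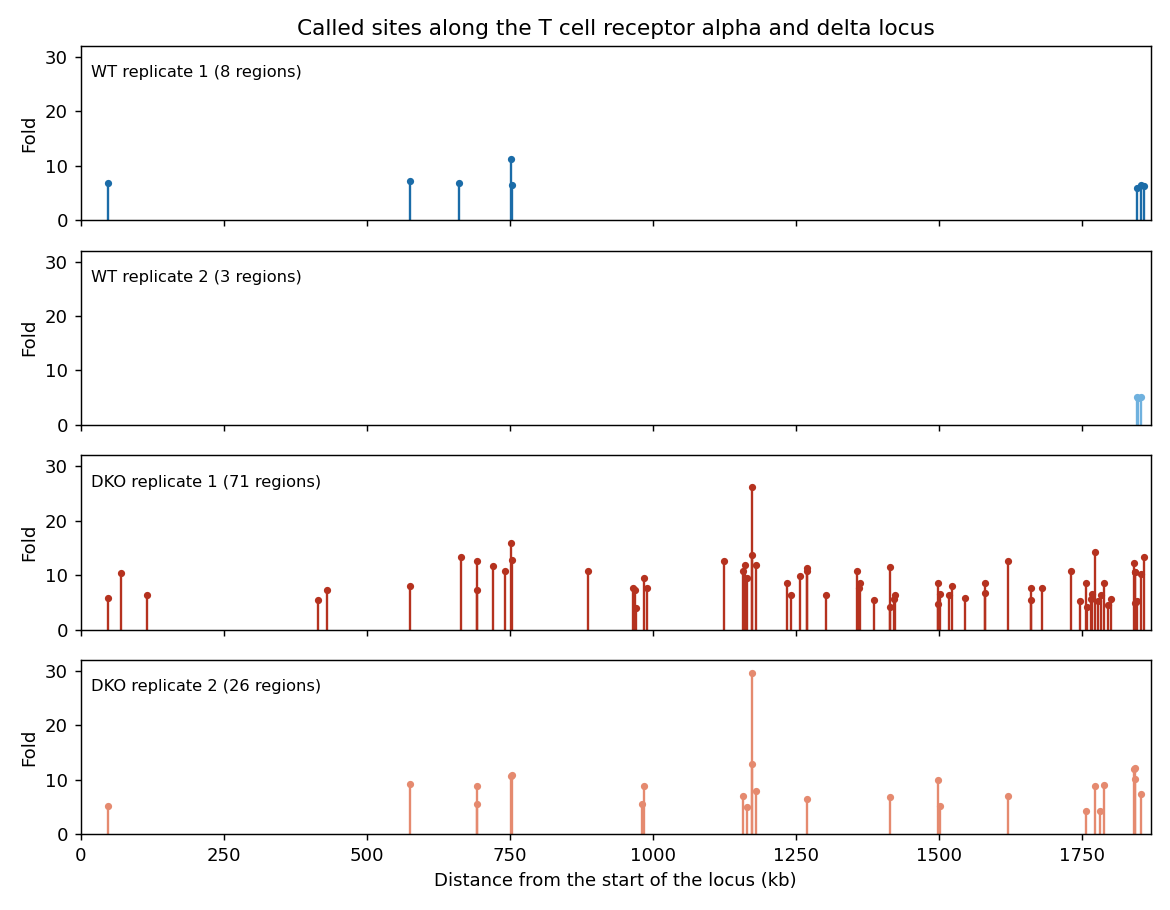
Fold enrichment (vertical axis, the authors' value, linear) of each called region against its distance in kb from the start of the locus, 1 panel per library, with a line and point for the strongest peak of each region. WT replicate 2 has calls only at the far end, WT replicate 1 has 5 calls in the first 755 kb and 3 at the end, and the DKO calls run along the locus.

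By call pattern, 66 of the 75 regions (88%) were called in neither WT library, a pattern that covered 50.3% of all regions of the genome. DKO-only regions, with a peak in both DKO lists and in neither WT list, numbered 19 (25.3%), against 14.3% of all regions. Another 45 regions (60%) were called in DKO replicate 1 alone, the longest list, against 31.6% of all regions. DKO replicate 2 alone had 2 (2.67%), against 4.30% of all regions. In all, 49 regions (65.3%) had a call in 1 library, against 41.7% genome-wide. A single region (1.33%) was called in all 4 libraries, against 20.7% of all regions, and 5 regions (6.67%) in 3 libraries, against 15.4%. There was no WT-only region, with a peak in both WT lists and in neither DKO list, a class of 0.631% genome-wide. The site named in the choice of the locus belongs to the DKO-only class, so nothing is read from these shares. The counts lean on single libraries. Without DKO replicate 2 the DKO-only class held 64 regions, and without WT replicate 2 the regions called in every remaining library rose from 1 to 5.

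The WT calls stopped over most of the locus. Between 53754685 and 54847024, a stretch of 1092 kb, neither WT library had a peak, while DKO replicates 1 and 2 had 55 and 19 and shared 17 regions. In WT replicate 2 the empty stretch was longer and reached from the start of the locus to 54847024, 1847 kb. The longest stretch without a call in DKO replicate 1 was 299.7 kb, from 53115522 to 53415251, and in DKO replicate 2 it was 528.6 kb, from 53047659 to 53576297. At equal list length this WT-empty stretch still held 9 and 10 DKO peaks. Elsewhere on the autosomes there were 451 further stretches of at least 1 Mb between neighbouring WT peaks. They held a median of 2 and 1 and at most 14 and 7 peaks of DKO replicates 1 and 2, and at most 7 regions called in both. In the full lists the receptor locus was the autosomal stretch with the most DKO calls in either library, though it was shorter than the median of the others, 1869 kb. The locus was chosen by calls of these same libraries, so nothing is read from this rank. The other stretches were not compared at equal list length. Across all chromosomes, 1 stretch, on X, had more regions called in both DKO libraries. The lists hold no value for positions without a peak, so how many copies of this stretch were left in the cells of each library was not tested.

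**Figure D2:**
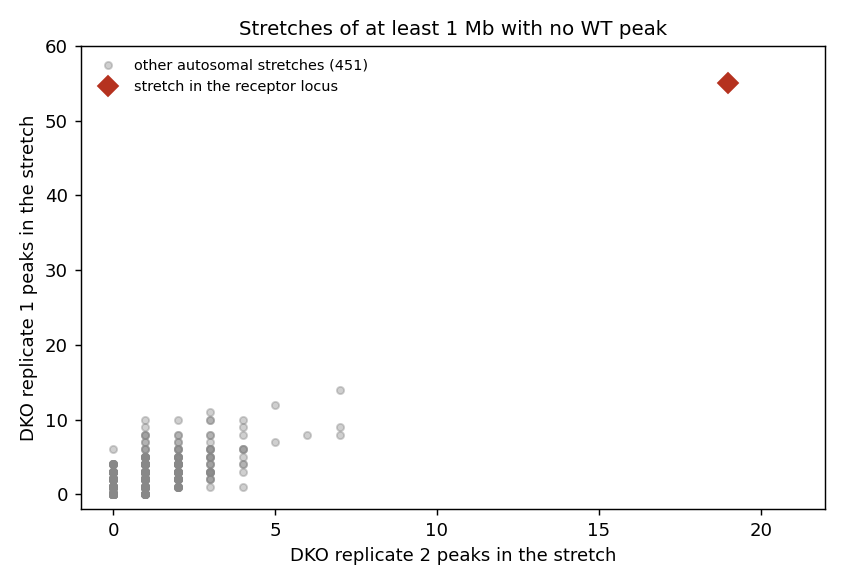
Each point is an autosomal stretch of at least 1 Mb between neighbouring WT peaks, placed by the number of DKO replicate 2 peaks (horizontal axis) and DKO replicate 1 peaks (vertical axis) inside it. The stretch in the receptor locus, a red diamond at 19 and 55 peaks, lies apart from the other 451, which reach 7 and 14.

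In windows of 100 kb on a fixed grid, calls of DKO replicates 1 and 2 fell in 16 and 12 of 19 windows, and those of WT replicates 1 and 2 in 5 and 1. In 11 windows only DKO calls were made, and 3 windows had no call at all. The window with the most DKO calls, from 54700001 to 54800000, held 11 and 4 peaks of DKO replicates 1 and 2 and none of WT. By the order of segments this is the part just upstream of Trac, but which of its peaks fall on Traj segments or on Trdc was not analysed here. The last window, 54800001 to 54870000, held 8 and 4 DKO peaks in 70 kb. The window at 54100001 to 54200000 held 7 and 5, with 5 of its 7 regions DKO-only.

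**Figure D3:**
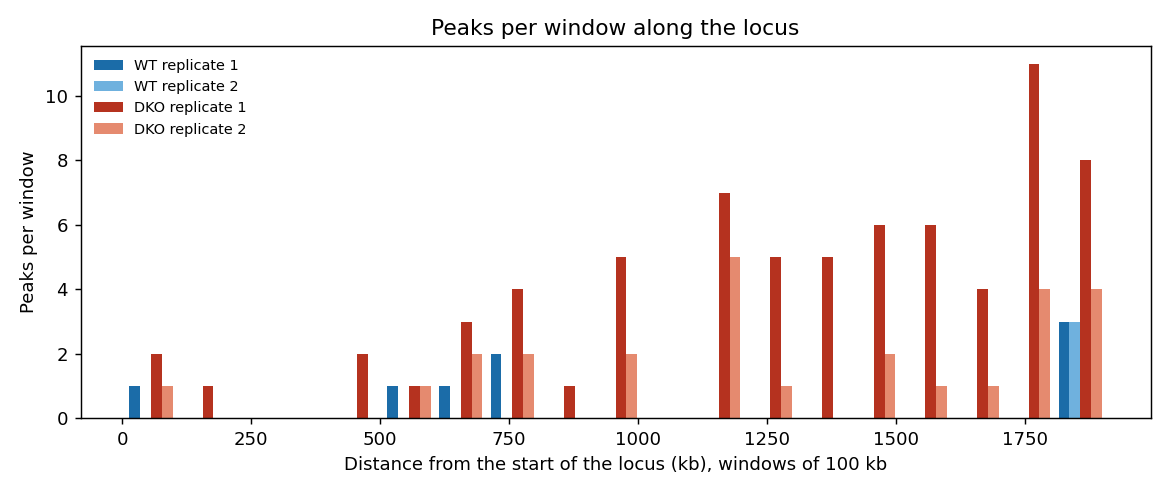
Peaks per 100 kb window (vertical axis) in the 4 libraries, in order of distance from the start of the locus in kb; the last window ends at 1870 kb and is 70 kb wide. DKO replicate 1 bars are highest near the constant gene end, up to 11 peaks in the window from 1700 kb. DKO replicate 2 bars are highest in the window from 1100 kb, with 5 peaks, and WT bars reach 3 in the last window.

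The site of highest fold in the locus was DKO-only and lay among the variable segments. The region from 54173594 to 54173775, 182 bp, had folds of 26.1 and 29.6 in DKO replicates 1 and 2, with pileups of 108 and 102 fragments over local backgrounds of 3.18 and 2.48. It ranked 85th of 34788 peaks in DKO replicate 1 and 53rd of 21353 in DKO replicate 2, by −log10 p. Only 160 bp further on, the region from 54173936 to 54174294 had folds of 13.7 and 12.8, pileups of 57 and 44 and backgrounds of 3.24 and 2.50. The pair lies inside the stretch without WT calls. Whether its fragments came from the locus or from another copy of the same sequence was not tested. Both edges of the first region were placed within 2 bp of each other by the 2 libraries, which gave it a width of 180 bp each. Around the pair, weaker DKO-only regions lay at 54157709 to 54157822, 54165146 to 54165296 and 54179937 to 54180151, with folds of 10.8 and 6.99, of 9.38 and 5.02, and of 11.8 and 7.92 in DKO replicates 1 and 2.

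**Figure D4:**
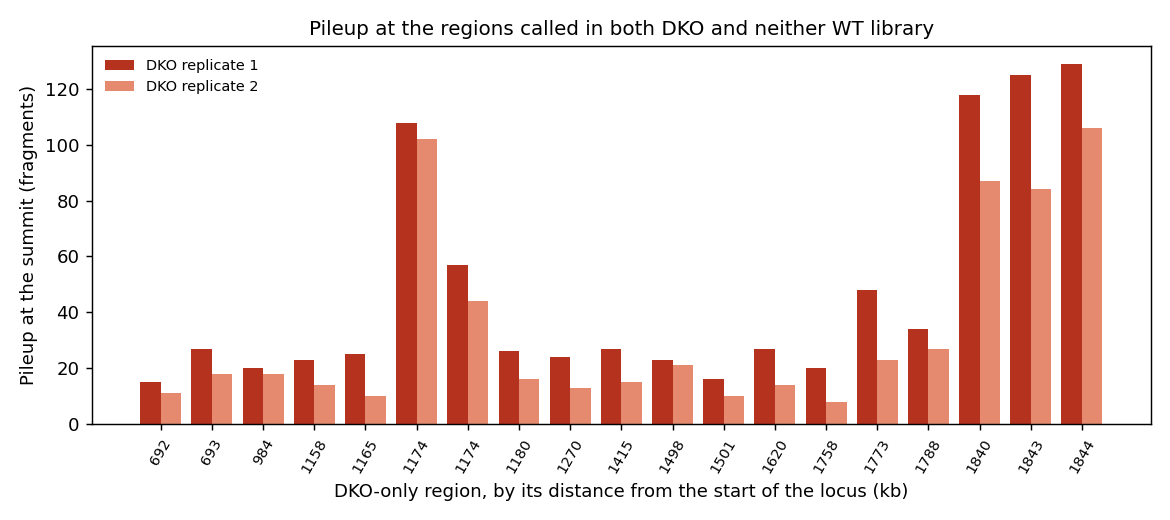
Pileup at the summit in fragments (vertical axis) for the 19 DKO-only regions, in DKO replicates 1 and 2, ordered and named by distance from the start of the locus in kb. The pair near 1174 kb and the 3 regions from 1840 kb on stand above the rest, and DKO replicate 1 is higher at each of the 19.

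At Trac itself, which lies near 54.84 Mb, 3 DKO-only regions stood close together. The most upstream, 54840205 to 54840449, had folds of 12.3 and 12 and pileups of 118 and 87 fragments in DKO replicates 1 and 2. The region from 54842667 to 54842780, 114 bp, had folds of 10.6 and 10.2 and pileups of 125 and 84. The region from 54843364 to 54843663, 300 bp, had folds of 10.6 and 12.2 and pileups of 129 and 106. All 3 were in the top 1.06% of both DKO lists by −log10 p, and no WT list had a peak there. By fold the same 3 regions ranked lower, in the top 23.3, 33.1 and 33.6% of the DKO replicate 1 list and in the top 11.1, 21.6 and 10.3% of the DKO replicate 2 list. Between the most upstream region and the other two, DKO replicate 1 alone had a peak at 54842240 to 54842337 with a fold of 4.93 and a pileup of 53, named here after its values were seen. From the first to the last edge the group spanned 3459 bp, with 1790, 329 and 583 bp between neighbours.

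The local background at the 3 regions was high. This value is set by fragments around a peak and, where no control library is used, by those of the neighbouring summits too. It was 8.69, 10.9 and 11.3 fragments per position in DKO replicate 1 and 6.31, 7.35 and 7.75 in DKO replicate 2, against medians of 1.79 and 1.63 over the whole lists. Only 0.218% of all DKO replicate 1 peaks and 0.412% of all DKO replicate 2 peaks had a background as high as the lowest of these. In the WT libraries the background near Trac is known only at their own peaks, where it was highest just downstream, at 4.5 and 3.98 fragments per position in replicates 1 and 2, against list medians of 2.1 and 2.0. Both WT values stood at the 99.5th percentile of their lists. They belong to a site 7.2 kb downstream of the Trac position, where DKO replicate 1 had 8.63. The WT lists hold no value at the 3 regions, so the genotypes cannot be compared there. Trac is made of several exons, and which of them the regions overlap was not analysed here. The lists hold positions and not reads, so fragments of the genomic gene and of any other copy of its sequence would be placed alike. This was not tested, and the labels name no receptor transgene.

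The stretch just downstream of Trac, where the alpha enhancer is known to lie, was the part of the locus with WT calls in both replicates. The region from 54847025 to 54847446, 422 bp, was called in both WT libraries and in DKO replicate 1. Its folds were 5.82 and 5.02 in the WT replicates 1 and 2, against 5.19 in DKO replicate 1. The pileups were 31 and 24 in WT and 49 in DKO replicate 1, where the background was 8.63 against 4.5 and 3.98 in WT. Fold and pileup therefore ordered the libraries differently: DKO replicate 1 had the most fragments here and a fold between those of the WT libraries. DKO replicate 2 listed no peak here. Its running peak numbers skip 1 number, 6695, between 54843664 and 54853082, and those of DKO replicate 1 skip 10880 between 54847443 and 54852954. What stood at the skipped numbers is not given. Over the whole locus the numbers skip 3 times in DKO replicate 1, 2 times in DKO replicate 2 and 0 times in either WT list. Genome-wide, the list of WT replicate 1 skips 1530 numbers and that of WT replicate 2 skips 871. For DKO replicate 1 the count is 1476, while DKO replicate 2 has 908. Skips are thus found in every list, and WT has few peaks in the locus, so nothing is read from its 0 skips there. WT replicate 2 alone had a further peak at 54847958 to 54848140, with a fold of 4.95, a pileup of 23 and a background of 3.85, also named after its values were seen. At equal list length the region from 54847025 to 54847446 became the only WT-only region of the locus, since its DKO replicate 1 peak ranked in the top 43.2% of a longer list and was removed by that length. Of all regions, 4.61% were WT-only at this length, so nothing is read from this change.

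The region from 54852936 to 54853324 was the 1 region of the locus called in all 4 libraries. Its folds were 6.46 and 5.09 in the WT replicates 1 and 2, against 10.2 and 7.35 in the DKO replicates. The pileups were 25 and 17 in WT and 36 and 21 in DKO, with backgrounds of 3.03, 2.53, 2.64 and 1.99 in the same order. The folds of the genotypes did not overlap, while the pileup of DKO replicate 2 lay between those of the WT libraries. Folds were higher throughout the DKO lists, with medians of 8.50 and 7.24 against 6.43 and 6.13 in WT. By −log10 p the region stood in the top 38.7 and 67.1% of the WT lists and 29.8 and 44.4% of the DKO lists. These ranks overlapped. By fold it stood in the top 49.6 and 74.6% of the WT lists and 36.4 and 48.7% of the DKO lists. Those ranks did not overlap. The answer thus depended on the ranking and no test was made, so no difference between genotypes is read from the folds. A neighbouring region at 54858778 to 54858984 was called in the replicates 1 of both genotypes, with a fold of 6.18 and a pileup of 17 in WT and of 13.4 and 31 in DKO.

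**Figure D5:**
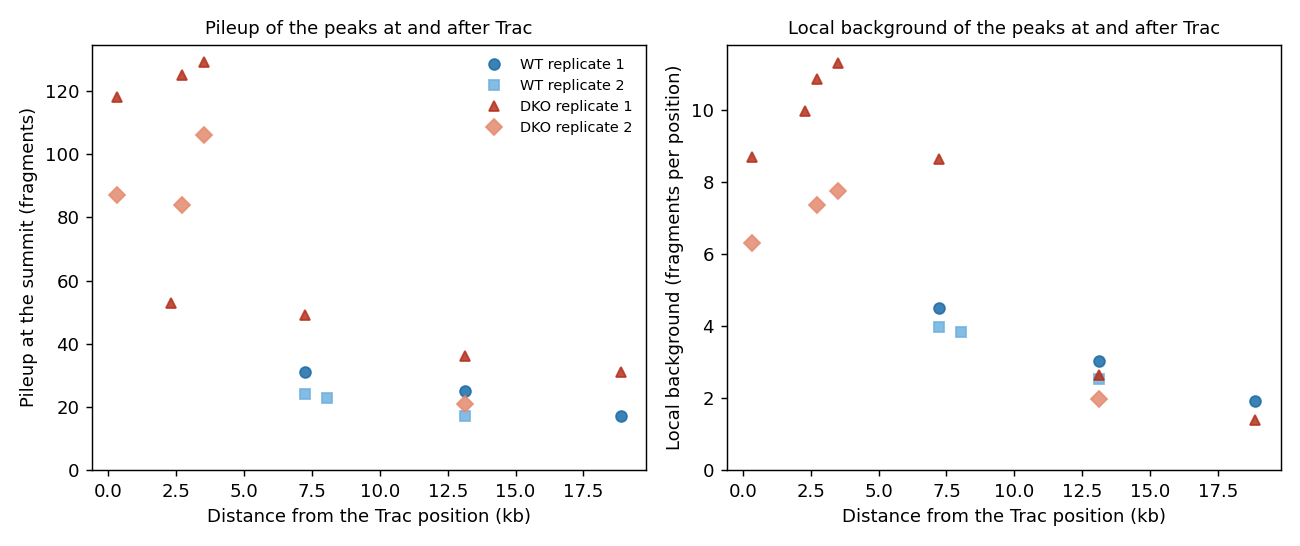
Pileup at the summit in fragments (left) and local background in fragments per position (right) of every peak from the Trac position to 20 kb downstream, by library; a library without a symbol at a place had no peak there. The DKO peaks of the first 3.5 kb have pileups of 53 to 129 and backgrounds of 6.31 to 11.3, and the WT peaks begin 7.2 kb downstream.

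Upstream, 4 regions were shared by WT replicate 1 and both DKO libraries, and all lie in the first 755 kb of the locus, among the more distant variable segments. The region of highest fold in both replicates 1, 53752206 to 53752336, had a fold of 11.2 and a pileup of 27 in WT replicate 1, and folds of 15.8 and 10.7 and pileups of 41 and 23 in DKO replicates 1 and 2. It stood in the top 11% of the WT replicate 1 list. About 2 kb away, 53754386 to 53754878 had folds of 6.40, 12.7 and 10.9 in WT replicate 1 and DKO replicates 1 and 2, with pileups of 15, 34 and 23. At 53576298 to 53576400 the folds were 7.20, 8.07 and 9.32 and the pileups 17, 17 and 19, the most even of these 4 sites across libraries. At 53047290 to 53047658 the order was the other way, with folds of 6.79 in WT replicate 1 and 5.83 and 5.12 in DKO, and pileups of 16, 12 and 10. WT replicate 1 had 1 call of its own in the locus, at 53661843 to 53662080, with a fold of 6.80 and a pileup of 16.

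Of the remaining DKO-only regions of the 10 with the highest lower fold, 2 lay in the 70 kb before Trac. The region from 54772649 to 54772759 had folds of 14.2 and 8.88 and pileups of 48 and 23, and the region from 54788234 to 54788360 had folds of 8.48 and 9.11 and pileups of 34 and 27. Among the variable segments, 53692872 to 53693020 had folds of 12.6 and 8.85, 53983771 to 53983874 had 9.42 and 8.85, and 54498071 to 54498212 had 8.61 and 9.98. Of the 75 regions of the locus, 10 (13.3%) were DKO-only with a fold of 8 or more in both DKO libraries, as were 2.38% of the regions of the genome; nothing is read from this share. The 9 other DKO-only regions had folds of 6.5 to 12.6 in DKO replicate 1 and 4.19 to 7.92 in DKO replicate 2, and pileups of 15 to 27 and 8 to 16. At equal list length 7 of the regions were DKO-only, namely the pair near 54.174 Mb, the 3 at Trac, 54772649 to 54772759 and 53692872 to 53693020. That is 7 of 24 regions, where 5.75% of all regions were DKO-only at this length. The pair near 54.174 Mb was used in the choice of the locus, so nothing is read from this share either.

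The 45 regions called in DKO replicate 1 alone were weaker, with a median fold of 6.79 (4.04 to 13.4) and a median pileup of 16 fragments (8 to 53). Over the whole genome the median fold of peaks called in that library alone was 6.16. The 2 regions of DKO replicate 2 alone had folds of 5.59 and 4.35. Just outside the locus, the nearest upstream site had the call pattern of the first region inside it. The nearest downstream site had the pattern of the region at 54852936, and not that of the outermost region inside, at 54858778. Downstream, all 4 libraries had a peak within 54873517 to 54873881, with folds of 9.85 and 7.90 in WT and 16.4 and 10.9 in DKO. Upstream, WT replicate 1 and DKO replicates 1 and 2 had their last peak before the locus at 52958463 to 52958588, with folds of 11.8, 23.9 and 10.9, and WT replicate 2 had its last at 52924651 to 52924975 with a fold of 7.84. The outermost peaks inside the locus were the region at 53047290 described above (in WT replicate 2, that at 54847025) and, downstream, that at 54858778 in both replicates 1 and that at 54852936 in both replicates 2.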

How the data were processed

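DNase-seq peak lists of 4 libraries were used, 1 per library and so not pooled. The submitters' processing notes name the build mm9 and the tools FastQC, Bowtie2 2.2.5 and MACS2 2.1.1. For settings, a control library and duplicate handling nothing is given in the sources used here. Each deposited list gives a fold enrichment (a ratio of pileup to local background), the −log10 p and −log10 q of each peak, and a score of 10 times the −log10 q. No deposited fold is below 4.

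Starts were converted to positions counted from 1. The pileup and background were solved from the deposited fold, (pileup + 1)/(background + 1), and the −log10 p, a Poisson upper tail, wherever the −log10 p was at most 250. This left out 102 of 84735 peaks and none of the locus, and was tested on simulated peaks, as was the counting of call patterns. The members, classes and alternatives were chosen with earlier results of these data known. No test was made: with 2 libraries per genotype the smallest exact permutation p is 0.33. Named by rule are the regions called in all 4 or in 3 libraries and, of the DKO-only class, the 10 with the highest lower fold. Other regions of the locus given by position fall outside this rule and were named with their values known. The comparison with other WT-empty stretches was added after the lists were seen. Alternatives covered −log10 q minimums, equal list lengths, overlap, merging within 500 bp and each library left out. Python 3.11.15, pandas 2.3.3, numpy 2.4.6, scipy 1.17.1 and matplotlib 3.10.9 were used.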

Additional observations from a re-analysis of the deposited data

How the results depend on the processing

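The log2 ratio of DKO to WT peaks in the locus was 3.14. It was 4.35 at a −log10 q of at least 10, where the whole lists gave 1.51, and 1.45 and 1.49 at equal list lengths by −log10 p and by fold, where the whole lists give 0. With replicate number as a replicate block it was 3.13, and nothing in the labels says that the numbers pair the libraries. DKO-only regions fell from 19 to 7 and 6 at equal lengths by −log10 p and by fold. Their share of all regions fell from 14.3% to 5.75 and 5.78%. WT-only regions rose from 0 to 1 in both, of 24 and 27 regions in the locus. Of all regions, 4.61 and 4.71% were WT-only at these lengths, against 0.631% in the full lists, so nothing is read from this rise. No region was called in all 4 libraries at a −log10 q of at least 10, at equal lengths by fold, or without the stretch within 100 kb of Trac, a setting added after seeing the data (0 each, against 1). Leaving out each library gave log2 ratios of 2.24 to 4.01, 19 to 64 DKO-only regions, 0 to 1 WT-only regions and 1 to 5 regions called in every library. The other settings kept the counts within 1.5 times and the ratio within 1 SD of the log2 peak numbers, 1.0. Ranked by fold in place of −log10 p, 38 of 39 ranks of named regions within their lists moved beyond their binomial interval, 20 of the 39 up and 19 down. Such an interval is narrow in lists of this length and does not measure the spread between ranking rules, so nothing is read from that count. The median top share went from 31.3 to 31.7%. Read totals are not in the lists, so what depth limits was not tested. A site without a peak did not pass the listing thresholds and is not shown to be closed.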

Other observations

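Many sites of the locus stood on a background at the lowest level of their library, taken as within 0.5% of the lowest value. This held for 34 of 71 locus peaks (47.9%) in DKO replicate 1 and 12 of 26 (46.2%) in DKO replicate 2, against 16.8% and 10.7% of the whole lists. In WT replicate 1 it held for 5 of 8, all of them upstream, against 8.45% of the list. In WT replicate 2 it held for 0 of 3, against 8.26% of the list. Within 100 kb of the Trac position the median background was 2.55 and 2.03 fragments per position in DKO replicates 1 and 2, and over the rest of the locus it was 1.23 and 1.15, the lowest level of each library. Locus peaks were narrower than the lists in DKO, with median widths of 120 and 126.5 bp against 165 and 160 bp. They were wider in WT, with 209.5 and 185 bp against 172 and 175 bp, but these WT medians rest on 8 and 3 peaks.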
